A study of Danio rerio with 12 samples.

Results

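The mRNAs that a zebrafish egg carries at fertilization were compared between embryos that lacked the ubiquitin ligase Znf598 and wild-type embryos 1 hour postfertilization (hpf). The comparison used 6 of the 12 RNA-Seq libraries of the series, chosen by their labels as 3 libraries of MZznf598 embryos and 3 libraries of wild-type (WT) embryos, all at 1 hpf. MZznf598 embryos are maternal-zygotic mutants, the offspring of homozygous mutant mothers and fathers, and carry a small deletion in the first exon of znf598 that shifts the reading frame within the RING domain. WT embryos were of the AB strain and carried no mutation or treatment named in the labels. Each library was made from a pool of embryos, and nothing in the labels states that the pools of a group came from separate crosses, so the p-values measure only the spread between these libraries. The embryos of each genotype came from their own parents, so the loss of Znf598 and other differences between the parental stocks cannot be told apart.

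At 1 hpf the zygotic genome is almost silent, and nearly all of the mRNA in the embryo was made by the mother during oogenesis. This stock supports the first cleavages and is cleared later, during the maternal-to-zygotic transition. Znf598 recognizes ribosomes that have collided on an mRNA and ubiquitinates their small subunit, which leads to rescue of the ribosomes, to decay of the nascent peptide and to no-go decay of the mRNA. The comparison asked which functions are served by the maternally supplied mRNAs that differed.

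Each library held between 10292330 and 12162660 counts in genes, and 13599 of the 25432 genes had more than 1 CPM (counts per 1000000 counts in genes) in at least 3 of the 6 libraries and were tested. The libraries held maternal and few zygotic markers. The summed level of 23 oocyte-derived maternal genes was 8002 to 8468 CPM in MZznf598 and 7350 to 9519 CPM in WT libraries, whereas 24 zygotic genes of gastrulae summed to 18.6 to 25.5 CPM in MZznf598 and 16.2 to 50.4 CPM in WT libraries, with 16 of them under 1 CPM in all 6. Markers of blood and of yolk and liver each summed to under 5 CPM in all 6 libraries. Genes of sperm and testis (9 genes, of which 1 was tested) summed to 1.85 to 2.93 CPM in MZznf598 and 4.04 to 9.73 CPM in WT libraries. Most of this gap lay in dcst1, an untested gene, with 0, 0.0838 and 0 CPM in MZznf598 and 7.64, 5.12 and 0.866 CPM in WT libraries. A further 14 genes of follicle cells and ovarian stroma summed to 483 to 565 CPM in MZznf598 and 544 to 555 CPM in WT libraries. Nearly all of this sum lay in cyp11a1 (ENSDARG00000002347, 430 CPM in MZznf598, 391 CPM in WT) and cyp17a1 (97.5 CPM in MZznf598, 157 CPM in WT). Of the 14 genes, 11 were under 1 CPM in all 6 libraries. The part of these markers in the differences below was not tested. In pooled whole embryos, the level of an mRNA does not show which cells it came from. The first principal component held 56.2% of the variance and separated the genotypes, and the second held 23.4% and separated WT replicate 3 from the other libraries.

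WT replicate 3 stood apart from its group. In this library 783 genes lay more than 2-fold from the mean of the other WT libraries on the log2(CPM + 1) scale, whereas 79, 82 and 156 genes did so in the MZznf598 libraries and 241 and 239 genes in WT replicates 1 and 2. The counts of called genes by function below are therefore given with and without it. Shares with all 6 libraries stand against 2.24% of all genes, and shares without WT replicate 3 against 10.5%. Without WT replicate 3 the test called 702 genes higher (5.16%) and 731 genes lower (5.38%) in MZznf598, 10.5% of the genes tested in all, against 118 and 187 genes with all 6 libraries. Of the genes called with all 6 libraries, 115 of 118 and 185 of 187 were also called without WT replicate 3. Leaving out an MZznf598 library had the opposite effect, with 15 to 29 genes called higher and 47 to 63 called lower. Without WT replicate 1 the test called 82 and 112 genes, and without WT replicate 2 it called 57 and 105 genes. All 118 and all 187 genes had the same sign in each of these 6 fits, and 13 and 36 of them passed in every one.

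**Figure D1:**
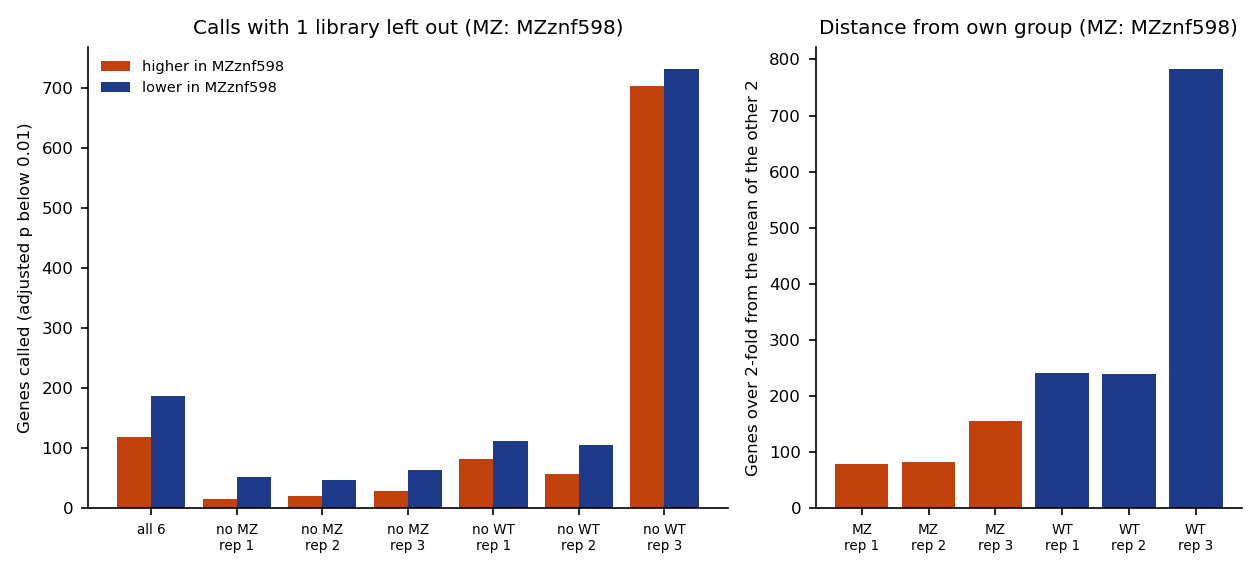
Left, the number of genes called higher or lower in MZznf598 at 1 hpf (edgeR adjusted p below 0.01) with all 6 libraries and with each library left out. Right, for each library, the number of genes over 2-fold from the mean of the other 2 libraries of its group on the log2(CPM + 1) scale. Without WT replicate 3 the counts were 702 and 731, and that library had 783 such genes.

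The targeted gene was examined first. znf598 (ENSDARG00000014945) had 4.27, 4.44 and 4.19 CPM in the MZznf598 libraries, against 159, 173 and 151 CPM in the WT libraries. The mRNA was thus low in every library labelled MZznf598 and high in every WT library (log2 fold change -5.22, SE 0.09, edgeR adjusted p = 7.29e-07). It fell within the 12 largest decreases among called genes of at least 5 CPM in WT with a symbol that is not clone-based. Its call was made in every fit without 1 library, with a log2 fold change of -5.27 to -5.17.

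Genes that act with Znf598 on collided ribosomes were examined next. Of 37 tested genes for ribosome collision, no-go decay and ribosome rescue, none rose and 2 fell (5.41% called, against 2.24% of all genes tested), 1 of them znf598 itself. The other was otud3, a deubiquitinase that removes ubiquitin from the small ribosomal subunit in human cells. otud3 (ENSDARG00000022648) had 65.1, 65.2 and 66.1 CPM in the MZznf598 libraries, against 93.8, 100 and 98.1 CPM in the WT libraries (log2 fold change -0.57, SE 0.06, edgeR adjusted p = 0.00205). The groups did not overlap, and the median log2 fold change of the list was 0.01. Of the 36 members other than znf598, 31 lay within 0.5 of 0 on the log2 scale, 20 were above 0 and 5 had an unadjusted p below 0.05. With znf598 it was 6 of the 37 (16.2%, against 22.0% of all genes). The 5% and 95% quantiles of the log2 fold change were -1.07 and 0.23 in the list, against -0.86 and 0.73 over all genes. The list named the sensor kinase map3k20 (log2 fold change -0.902, edgeR adjusted p = 0.09096) and ascc1 of the ribosome-splitting complex (log2 fold change -1.72, edgeR adjusted p = 0.0351), which did not pass by edgeR. A gene that carries the symbol rnf14 and averaged 0.3396 CPM in WT had the highest value, 2.23, and did not pass either. The helicase ascc3 (-0.52), the translational repressors gigyf1 (0.16 and 0.01 for its 2 genes) and gigyf2 (0.06), the rescue factors pelo (-0.05) and hbs1l (0.02), the quality control ligase ltn1 (0.02) and the collision sensors edf1 (0.01) and gcn1 (0.03) did not pass, with the log2 fold change given for each. znf598 passed in each of the 6 fits without 1 library, and the call of otud3 was lost without MZznf598 replicate 1, 2 or 3 or WT replicate 2, at edgeR adjusted p of up to 0.02099 for otud3 without MZznf598 replicate 1. Without WT replicate 3 the list had 2 genes higher and 3 lower, 13.5% against 10.5% of all genes. DESeq2 called 3 of the 37, against 990 of all 13599 genes. These were znf598, otud3 and ascc1 (DESeq2 adjusted p = 0.000139 for ascc1), each lower in MZznf598.

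Across all 13599 genes, 118 mRNAs rose and 187 fell in MZznf598 (0.868% and 1.38% of the genes tested), and over all genes the log2 fold changes had a median of -0.003. These genes held a small part of the mRNA. The 118 genes that rose held 0.938% to 0.963% of the counts in MZznf598 libraries and 0.543% to 0.556% in WT libraries, and the 187 that fell held 0.512% to 0.520% in MZznf598 and 1.01% to 1.05% in WT libraries. None of the 305 genes overlapped between the groups, which was also true of 27.9% of all genes tested. Where a lack of overlap is given for a single called gene, it therefore adds nothing to the call. Among the genes that rose the median log2 fold change was 1.28 (interquartile range 0.71 to 2.702), with 73 over 2-fold and 38 over 4-fold. Among those that fell it was -1.64 (-3.32 to -0.95), with 135 over 2-fold and 81 over 4-fold.

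The calls were spread over the range of expression. Of genes with a mean level of 100 CPM or more over both groups 1.24% were called, against 2.44% under 5 CPM, 2.51% from 5 to 20 CPM and 2.60% from 20 to 100 CPM. The depth sets what can be called, and the smallest called change was 1.57 on the log2 scale under 5 CPM and 0.28 at 100 CPM or more. This smallest change was that of top1, a topoisomerase that relaxes DNA, with 1131, 1152 and 1130 CPM in the MZznf598 libraries, against 946, 941 and 921 CPM in the WT libraries.

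**Figure D2:**
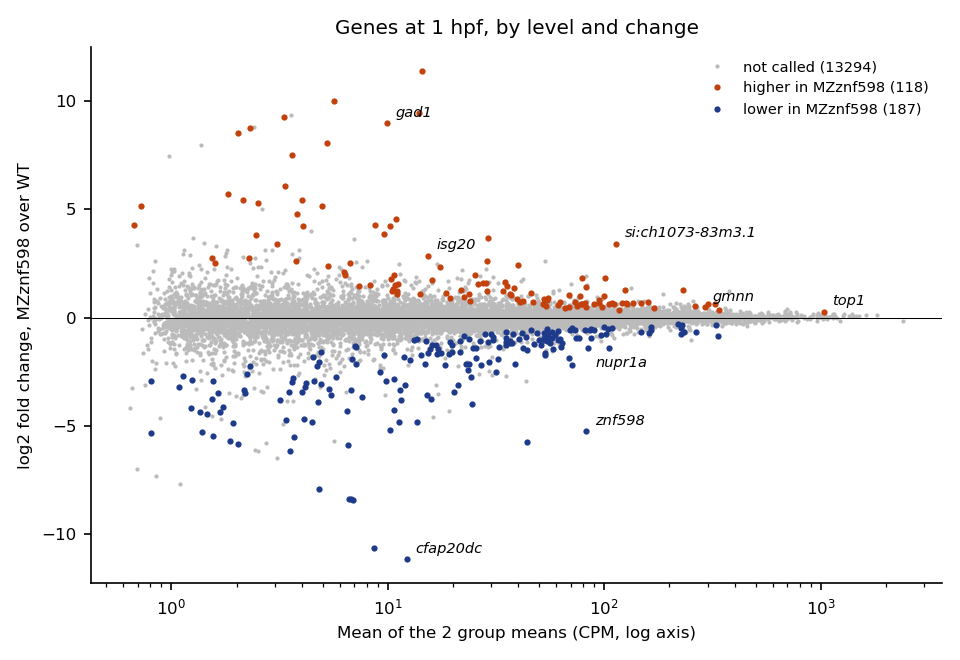
Log2 fold change of MZznf598 over WT at 1 hpf (vertical axis) against the mean of the group means in CPM (horizontal log axis) for each of the 13599 genes tested. The 118 genes that rose and the 187 that fell are coloured, and many of those with the largest changes lie at low levels, whereas znf598 and si:ch1073-83m3.1 lie at higher ones.

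The 12 largest increases and decreases were taken among called genes of at least 5 CPM in the higher group. Genes with a clone- or identifier-based name were left out. The largest increase of all was in a gene so left out, si:dkey-19a16.7, chosen after its values were seen. It had 31.9, 12.1 and 42.5 CPM in the MZznf598 libraries and 0 CPM in every WT library. The gene was called (edgeR adjusted p = 0.0077) and passed in 1 of the 6 fits without 1 library. Among the 12, the largest increases were in mRNAs at very low levels in WT embryos. gad1 (ENSDARG00000093411), which encodes the enzyme that makes the transmitter GABA from glutamate, had 11.97, 21.02 and 26.6 CPM in the MZznf598 libraries, against 0, 0 and 0.0962 CPM in the WT libraries. chia.2 (ENSDARG00000099185), an acidic chitinase, had 9.92, 11.9 and 9.64 CPM in the MZznf598 libraries, against 0, 0 and 0.0962 CPM in the WT libraries. Both were thus present in all MZznf598 libraries and at or near 0 in all WT libraries, with no more than 1 count in any WT library. A gene this low in WT was tested only where every MZznf598 library exceeded 1 CPM, so that this presence was a condition of testing. With 1 count in the WT libraries together, the size of the change is poorly fixed, and the ratio of the summed counts of MZznf598 over WT, scaled to library size, was 685 for gad1 (95% exact interval 122 to 27077, counting error only) and 368 for chia.2 (65.6 to 14576). Both were called (edgeR adjusted p = 0.000652 and 0.000533). npc1l1 (ENSDARG00000099558), which encodes a sterol transporter of the intestine and liver, had 10, 8.63 and 10.4 CPM in the MZznf598 libraries, against 0.241, 0.165 and 0.385 CPM in the WT libraries (log2 fold change 5.17, SE 0.32, edgeR adjusted p = 0.000509). selenoj (ENSDARG00000087277), a selenoprotein found in fish, had 8.98, 7.79 and 5.36 CPM in the MZznf598 libraries, against 0.241, 0.165 and 0.385 CPM in the WT libraries (log2 fold change 4.78, SE 0.40, edgeR adjusted p = 0.00108). For these genes too the lowest MZznf598 library was well above the highest WT library, and no overlap between the groups was a condition of their choice.

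Of the other genes among the 12 largest increases, isg20 (ENSDARG00000079783), an interferon-induced exonuclease that degrades RNA, had 27.2, 25.5 and 28.7 CPM in the MZznf598 libraries, against 4.02, 4.04 and 2.98 CPM in the WT libraries (log2 fold change 2.87, SE 0.16, edgeR adjusted p = 0.000448). tpm4 (ENSDARG00000019128), a tropomyosin that coats actin filaments, had 45.3, 52.6 and 50.9 CPM in the MZznf598 libraries, against 10.4, 7.76 and 6.16 CPM in the WT libraries (log2 fold change 2.61, SE 0.19, edgeR adjusted p = 0.000617). In both genes the MZznf598 libraries lay close together. WT libraries ranged from 2.98 to 4.04 CPM for isg20 and from 6.16 to 10.4 CPM for tpm4. st3gal3 (ENSDARG00000015252), a sialyltransferase, had 80.2, 68.01 and 54.8 CPM in the MZznf598 libraries, against 17.3, 13.04 and 7.41 CPM in the WT libraries (log2 fold change 2.42, SE 0.29, edgeR adjusted p = 0.00388), and was the most abundant of the 12. col14a1, a collagen associated with fibrils, averaged 18.1 CPM in MZznf598 and 1.19 CPM in WT (log2 fold change 3.88). smad3, which carries Tgf-beta and Nodal signals to the nucleus, averaged 11.4 CPM in MZznf598 and 1.97 CPM in WT (log2 fold change 2.52). The transcription factor of the oxidative stress response nfe2l2 (7.73 CPM in MZznf598, 0.388 CPM in WT), the MHC class I heavy chain gene mhc1zfa (5.66 CPM in MZznf598, 0.5197 CPM in WT) and nat14, of an acetyltransferase family (6.49 CPM in MZznf598, 1.05 CPM in WT), completed the 12. Leaving out MZznf598 replicate 1, 2 or 3 or WT replicate 1 or 2 ended the calls of st3gal3, col14a1, smad3, nfe2l2, mhc1zfa and nat14 in at least 1 such fit, with edgeR adjusted p of up to 0.0387 for nfe2l2 without MZznf598 replicate 2, and no such fit ended that of gad1, chia.2, npc1l1, selenoj, isg20 and tpm4.

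Taken in the same way, again without clone- or identifier-based names, the largest decreases were in mRNAs that every WT library contained. A gene at or under 1 CPM in every MZznf598 library was tested only where every WT library exceeded 1 CPM. For such genes this presence in WT was a condition of testing. cfap20dc (ENSDARG00000026086), which encodes a protein with a domain shared with a cilia- and flagella-associated protein, had 0, 0 and 0 CPM in the MZznf598 libraries, against 22.3, 24.4 and 26.8 CPM in the WT libraries. trim35-1 (ENSDARG00000052037), a gene of the TRIM family of ubiquitin ligases, had 0, 0 and 0 CPM in the MZznf598 libraries, against 16.1, 20.1 and 15.8 CPM in the WT libraries. With a floor of 3 counts per MZznf598 library, cfap20dc was at least 91.8-fold and trim35-1 at least 65.02-fold lower in MZznf598 (edgeR adjusted p = 0.000493 and 0.000617). Not a single count of either gene was found in an MZznf598 library. sulf2a (ENSDARG00000018423), an extracellular enzyme that removes sulfate groups from heparan sulfate, had 0, 0.0838 and 0 CPM in the MZznf598 libraries, against 10.4, 10.2 and 20.7 CPM in the WT libraries (edgeR adjusted p = 0.001003). The summed counts of WT over MZznf598 gave a ratio of 454 (95% exact interval 81.1 to 17969). gabrr2 (ENSDARG00000052982), a subunit of a GABA-gated chloride channel, had 0.0855, 0.0838 and 0.0974 CPM in the MZznf598 libraries, against 5.79, 8.5 and 6.54 CPM in the WT libraries (edgeR adjusted p = 0.000509), and its ratio of WT over MZznf598 was 78.6 (26.6 to 384).

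frmd3 (ENSDARG00000059885), a FERM domain protein, had 0.427, 0.586 and 0.584 CPM in the MZznf598 libraries, against 21.2, 25.7 and 12.7 CPM in the WT libraries (log2 fold change -5.196, SE 0.36, edgeR adjusted p = 0.000617). arhgef49 (ENSDARG00000074034) had 1.197, 0.586 and 0.974 CPM in the MZznf598 libraries, against 24.7, 33.7 and 20.4 CPM in the WT libraries (log2 fold change -4.83, SE 0.31, edgeR adjusted p = 0.000523). These genes kept a low level in each MZznf598 library. The remaining members of the 12 were more variable among WT libraries. calhm5, of a family of large-pore channels, had 0, 0 and 0.0974 CPM in the MZznf598 libraries, against 15.3, 8.91 and 4.62 CPM in the WT libraries, and ccdc15, a coiled-coil protein, had 0, 0 and 0.0974 CPM in the MZznf598 libraries, against 19.9, 4.13 and 15.5 CPM in the WT libraries. sptb, the beta chain of spectrin, had 0.171, 0.168 and 0.0974 CPM in the MZznf598 libraries, against 7.88, 11.4 and 2.41 CPM in the WT libraries. pou2f2b, a POU domain transcription factor, had 0.342, 0.251 and 0.292 CPM in the MZznf598 libraries, against 2.895, 10.98 and 12.03 CPM in the WT libraries. WT libraries differed up to several-fold in these genes, and no overlap between the groups was a condition of their choice. The symbol mcm6, a subunit of the replicative helicase, is carried by 2 genes. The lower one, ENSDARG00000057683, had 0.0855, 0.168 and 0.389 CPM in the MZznf598 libraries, against 20.3, 8.33 and 10.2 CPM in the WT libraries, whereas the other, ENSDARG00000033231, averaged 162 CPM in MZznf598 and 162 CPM in WT. In the fits without 1 library, sulf2a, calhm5, ccdc15, sptb, pou2f2b and mcm6 each lost the call in at least 1. The library left out was then MZznf598 replicate 1, 2 or 3 or WT replicate 1, 2 or 3. The edgeR adjusted p reached 0.0485 for ccdc15 without MZznf598 replicate 3, and cfap20dc, trim35-1, gabrr2, frmd3 and arhgef49 passed in all 6. The call of ccdc15 was also lost without WT replicate 3, at edgeR adjusted p = 0.0122.

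**Figure D3:**
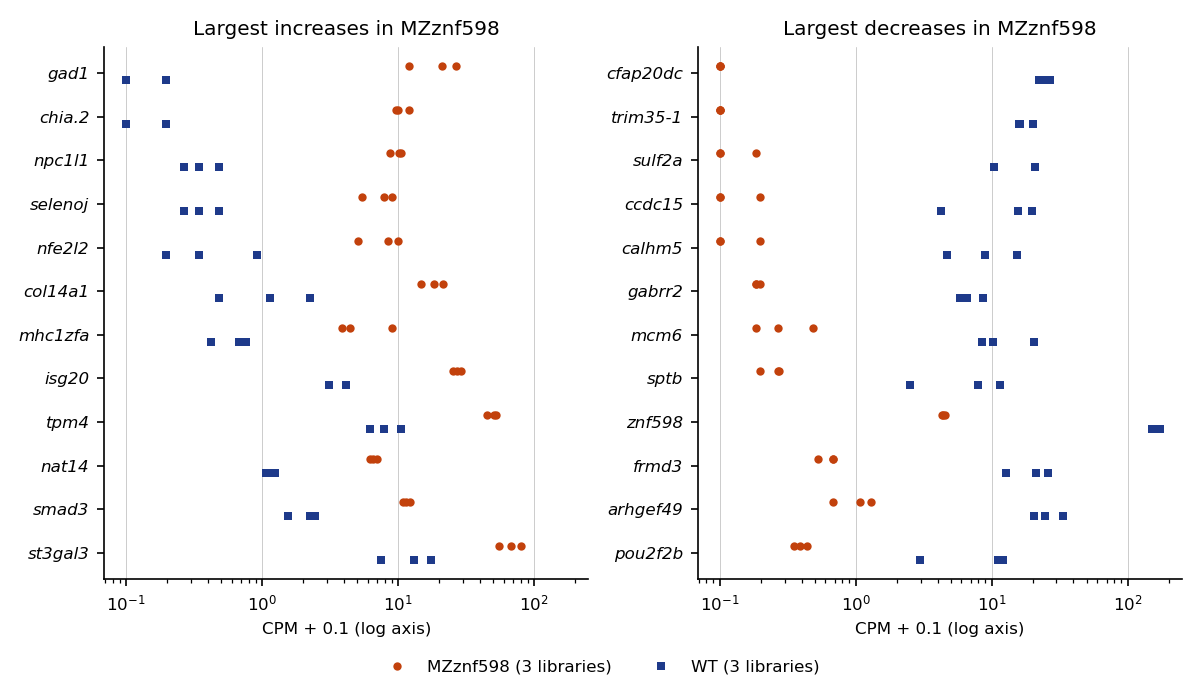
Level of the 12 genes with the largest increases (left) and the 12 with the largest decreases (right) in each library at 1 hpf, as CPM + 0.1 on a log axis. Genes with a clone- or identifier-based name, or under 5 CPM in the higher group, were left out. Circles are the 3 MZznf598 libraries and squares the 3 WT libraries. No overlap between the groups was a condition for choosing the 24 genes.

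Some genes had counts at or near 0 in 1 genotype. Reads with more than 1 mismatch to the reference genome were not counted, so such counts need not mean absent mRNA. How sequence differences between the parental stocks bear on them was not tested. Of the genes tested, 22 had no more than 3 counts in every WT library (0.162%) and 37 had no more than 3 counts in every MZznf598 library (0.272%). Such genes were tested only where every library of the other genotype exceeded 1 CPM. Their steady presence in that genotype was therefore a condition of testing and is no separate result. Of these, 16 were called higher and 22 lower in MZznf598. Among those that fell, stx7, a syntaxin of endosomes, averaged 0.178 CPM in MZznf598 and 3.301 CPM in WT, with a ratio of the summed counts of WT over MZznf598 of 18.8 (95% exact interval 8.36 to 52.2). This ratio was 61.6 (16.7 to 514) for coro2b, an actin-binding coronin, 21.3 (8.87 to 67.03) for hspb1, a small heat shock protein, and 23.8 (8.99 to 88.96) for ndufa9b, a subunit of respiratory complex I. The 16 that rose included gad1 and chia.2, and si:dkey-253d23.3, which has a name from a genomic clone, had 34.4, 15.5 and 33.98 CPM in the MZznf598 libraries, against 0, 0.0825 and 0 CPM in the WT libraries, a ratio of MZznf598 over WT of 965 (173 to 38152). When MZznf598 replicate 1, 2 or 3 or WT replicate 1 or 2 was left out, the calls of stx7, coro2b, hspb1 and ndufa9b were lost in at least 1 fit (edgeR adjusted p of up to 0.0378 for ndufa9b without MZznf598 replicate 1), but not that of si:dkey-253d23.3.

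To describe the functions, genes were sorted by symbol into 39 lists, which together held 6570 of the genes tested. Of these 2.13% were called, against 1.99% of 5428 genes that had a symbol in no list and 2.24% of all genes. No call fell in 5 of the 39 lists, 1 to 5 calls fell in 24 and more than 5 in 10, with 11 at most. The median log2 fold change of a list ranged from -0.06 to 0.12. The lists with the highest shares were small, so that 2 genes made 7.41% of the stress response list and 5.41% of the collision list.

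**Figure D4:**
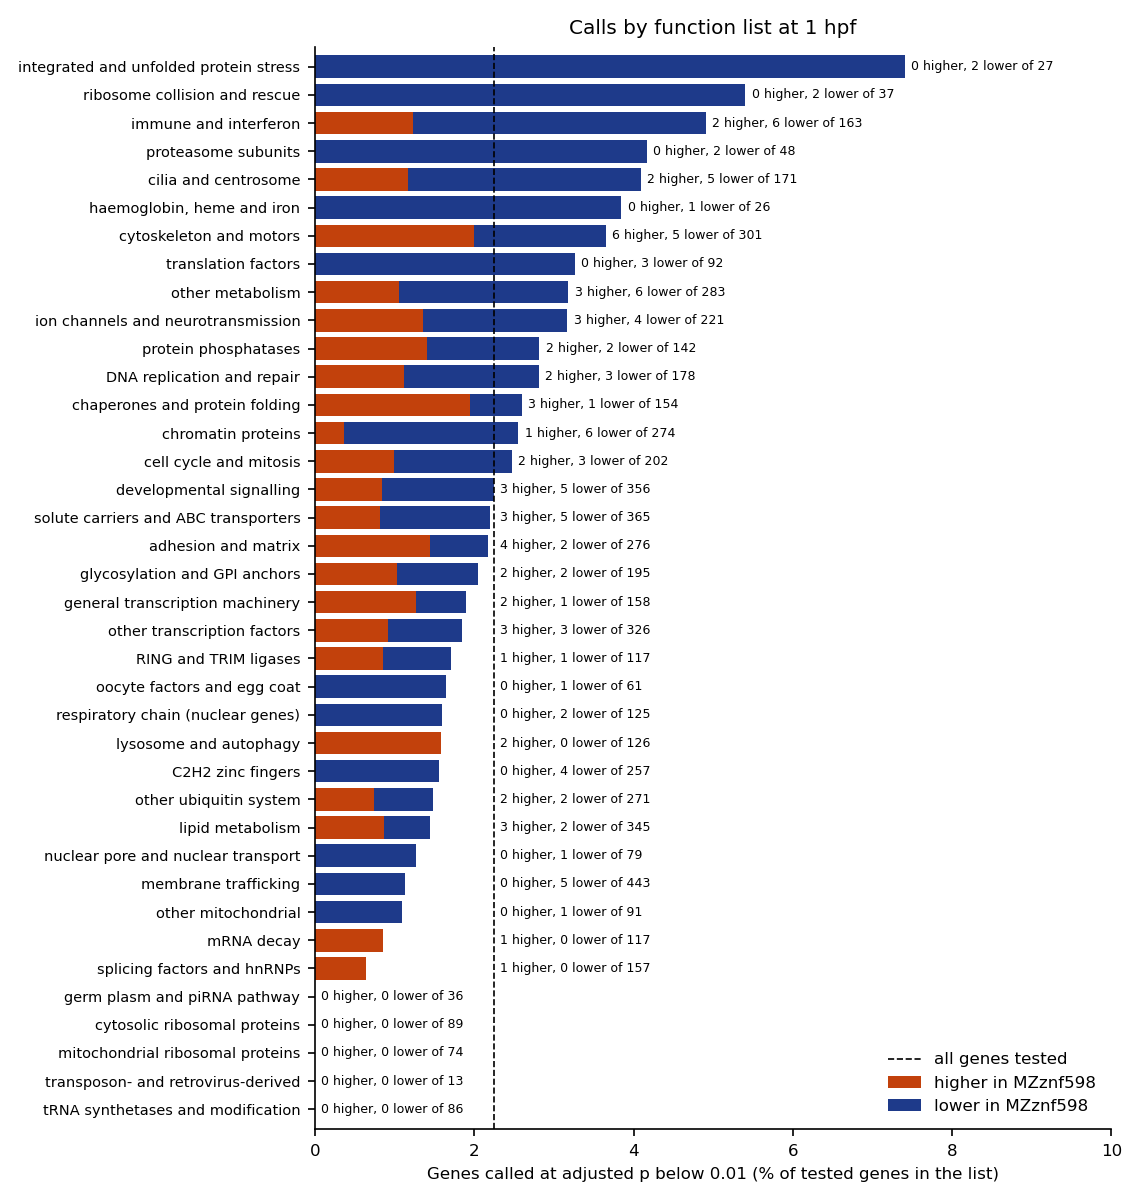
Share of the tested genes that were called higher or lower, by function list, in MZznf598 at 1 hpf (edgeR adjusted p below 0.01), stacked, with the numbers beside each bar and 1 of the 39 lists not shown. The dashed line marks the share over all genes tested, 2.24%, and the 5 lists at the bottom had no call.

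Genes of protein synthesis were sorted into 4 lists. By edgeR, none of 89 cytosolic ribosomal protein genes, 74 mitochondrial ribosomal protein genes and 86 genes of tRNA synthetases and tRNA modification was called, against 2.24% of all genes, with median log2 fold changes of 0.06, -0.04 and -0.03. At an unadjusted p below 0.05 they held 8, 9 and 18 genes (8.99%, 12.2% and 20.9%, against 22.0% of all genes). DESeq2 called 2, 0 and 3 of them, against 990 of all 13599 genes. When WT replicate 3 was left out, 1 of the cytosolic, 2 of the mitochondrial and 5 of the tRNA genes passed. Of 92 translation factors none rose and 3 fell (3.26%). eif4ebp2, a repressor that binds the cap-binding protein eIF4E, had 209, 211 and 200 CPM in the MZznf598 libraries, against 299, 345 and 335 CPM in the WT libraries (log2 fold change -0.66, SE 0.06, edgeR adjusted p = 0.00185). eif2b2, a subunit of the exchange factor that recharges eIF2, had 8.38, 7.62 and 8.28 CPM in the MZznf598 libraries, against 20.8, 26.5 and 29.5 CPM in the WT libraries (log2 fold change -1.66, SE 0.17, edgeR adjusted p = 0.00194). The third was mtif2, the mitochondrial initiation factor, which was not chosen by the naming rule (log2 fold change -1.61, edgeR adjusted p = 0.00371). All WT libraries were above all MZznf598 libraries in these genes. With WT replicate 3 left out, the list had 12 genes higher and 5 lower, 18.5% against 10.5% of all genes.

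Of 117 genes of deadenylation, decapping, the exosome, nonsense-mediated decay and maternal mRNA clearance, 1 rose and none fell (0.855%). This was dis3l, a cytoplasmic exosome nuclease, with 14.6, 16.2 and 14.3 CPM in the MZznf598 libraries, against 8.04, 6.44 and 6.54 CPM in the WT libraries (log2 fold change 1.099, SE 0.16, edgeR adjusted p = 0.00904). Of 157 splicing factors 1 rose and none fell (0.637%). srsf3, a serine- and arginine-rich splicing factor, had 172, 186 and 191 CPM in the MZznf598 libraries, against 110, 111 and 119 CPM in the WT libraries (log2 fold change 0.69, SE 0.06, edgeR adjusted p = 0.00138). In both genes every MZznf598 library was above every WT library. The decay list had 4 higher and 9 lower (11.1%) and the splicing list 9 higher and 7 lower (10.2%) without WT replicate 3, against 10.5% of all genes. In the fits without 1 library, eif4ebp2, eif2b2, dis3l, srsf3 and mtif2 each lost the call in at least 1. The library left out was then MZznf598 replicate 1, 2 or 3 or WT replicate 1 or 2. The edgeR adjusted p reached 0.0548 for dis3l without MZznf598 replicate 2.

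None of 36 tested genes of the germ plasm and the piRNA pathway was called by edgeR. DESeq2 called 4 of the 36, against 990 of all 13599 genes. The unadjusted p was below 0.05 in 16 of the 36 (44.4%, against 22.0% of all genes), and 14 of the 36 were above 0 on the log2 scale. The list was matched by symbol and also held zcchc genes, such as zcchc7 and zcchc8, that are not specific to these functions. Among the 16 were zcchc9 and zcchc14. The lowest adjusted p was that of grip2, a germ plasm component in zebrafish (log2 fold change 0.57, edgeR adjusted p = 0.0123). The levels of buc, the organizer of the germ plasm (log2 fold change -0.14), of the germ cell genes ddx4 (-0.04), dazl (0.09), nanos3 (0.24) and dnd1 (0.12), and of the Piwi genes piwil1 (-0.56) and piwil2 (0.04) did not pass the test. Of 61 oocyte-derived maternal factors and egg coat genes none rose and 1 fell (1.64%). npm2a (ENSDARG00000076391), an egg nucleoplasmin that remodels sperm chromatin in other vertebrates, had 21.5, 20.4 and 20.8 CPM in the MZznf598 libraries, against 51.4, 50.5 and 46.6 CPM in the WT libraries (log2 fold change -1.24, SE 0.09, edgeR adjusted p = 0.000617). Every WT library held over 2 times the level of every MZznf598 library. Its paralog npm2b averaged 126 CPM in MZznf598 and 127 CPM in WT. DESeq2 called 3 of the 61, against 990 of all 13599 genes. Besides npm2a these were zar1 (log2 fold change -0.86, DESeq2 adjusted p = 1.0e-05) and npm1b (0.53, DESeq2 adjusted p = 0.00054). The activators of the zygotic genome nanog (0.09), pou5f3 (0.18) and sox19b (0.003) did not pass on the log2 scale. No fit that left out 1 library lost the call of npm2a. Once WT replicate 3 was left out, the oocyte list had 12 genes higher and 4 lower (26.2%) and the germ plasm list 2 higher and 6 lower (22.2%), against 10.5% of all genes.

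Of 27 genes of the integrated and unfolded protein stress responses none rose and 2 fell (7.41%), although the list's median log2 fold change was 0.005. nupr1a (ENSDARG00000094300), a small stress-induced nuclear protein, had 46.7, 47.2 and 44.9 CPM in the MZznf598 libraries, against 125, 126 and 112 CPM in the WT libraries (log2 fold change -1.39, SE 0.07, edgeR adjusted p = 0.000346). ern1 (ENSDARG00000013997), which encodes the endoplasmic reticulum stress sensor Ire1, had 34.7, 35.7 and 34.8 CPM in the MZznf598 libraries, against 71.2, 70.5 and 80.9 CPM in the WT libraries (log2 fold change -1.08, SE 0.08, edgeR adjusted p = 0.000686). In both genes the MZznf598 libraries lay close together and below every WT library. The kinase eif2ak3 (log2 fold change 0.79, edgeR adjusted p = 0.04397) did not pass by edgeR. The transcription factors atf4a (0.102), xbp1 (-0.22) and atf6 (0.03) and the chaperone hspa5 (0.11), with log2 fold changes given, did not pass either. DESeq2 called 4 of the 27, against 990 of all 13599 genes. These were nupr1a, ern1 and sesn1, which were lower, and eif2ak3, which was higher (DESeq2 adjusted p = 0.000249 for eif2ak3). Leaving out WT replicate 3 gave 1 higher and 2 lower (11.1%) in this list, close to the 10.5% of all genes. Without any 1 library, nupr1a and ern1 remained past the threshold.

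C2H2 zinc finger genes were taken by symbol, which includes znf598 and leaves out family members with clone-based names. The paper instead found such genes by a search for the domain. Of 257 tested, none rose and 4 fell (1.56%), with a median log2 fold change of 0.03 and 138 of 257 above 0. znf1185 (ENSDARG00000097086) had 1.37, 1.93 and 1.27 CPM in the MZznf598 libraries, against 20.4, 23.8 and 20.2 CPM in the WT libraries (log2 fold change -3.81, SE 0.21, edgeR adjusted p = 0.000398). The others were znf598, znf142 (log2 fold change -0.99) and znf740b (-0.899), of which the last 2 were not chosen by the naming rule. Leaving out WT replicate 3, the test called 7 higher and 18 lower (9.73%), and the median turned to -0.03. The libraries of WT differed here, since the median difference of these genes from the other WT libraries was -0.19 in WT replicate 3 and 0.08 and 0.13 in replicates 1 and 2, on the log2(CPM + 1) scale. When MZznf598 replicate 1, 2 or 3 or WT replicate 1 or 2 was left out, the calls of znf142 and znf740b were lost in at least 1 fit (edgeR adjusted p of up to 0.0539 for znf740b without MZznf598 replicate 2), but not that of znf1185.

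Among ubiquitin ligases with a RING or TRIM symbol 1 of 117 rose and 1 fell (1.71%). rnf213, a giant ligase linked to lipid droplets and antiviral defence, had 196, 200 and 196 CPM in the MZznf598 libraries, against 114, 121 and 127 CPM in the WT libraries (log2 fold change 0.71, SE 0.06, edgeR adjusted p = 0.00101), and the gene that fell was trim35-1. In the rest of the ubiquitin system 2 of 271 genes rose and 2 fell (1.48%). btbd10a, a BTB domain protein, and klhl25, a cullin adaptor, rose (log2 fold change 0.802 and 1.104), and uchl3, a deubiquitinase, and otud3 fell (-0.58 and -0.57). Of 48 proteasome genes none rose and 2 fell (4.17%, against 2.24% of all genes). Without WT replicate 3 the list also had 2 genes lower and none higher, against 10.5% of all genes called in that fit. psmb10 (ENSDARG00000043781), the immunoproteasome subunit that replaces a catalytic subunit of the standard proteasome, had 0.9404, 0.838 and 1.56 CPM in the MZznf598 libraries, against 13.3, 14.4 and 14.6 CPM in the WT libraries (log2 fold change -3.67, SE 0.26, edgeR adjusted p = 0.000617). psmd12, of the regulatory particle, had 123, 114 and 110 CPM in the MZznf598 libraries, against 177, 181 and 185 CPM in the WT libraries (log2 fold change -0.65, SE 0.06, edgeR adjusted p = 0.00146). The decrease of psmb10 was thus over 10-fold, and that of psmd12 under 2-fold. When WT replicate 3 was left out, the RING and TRIM list had 4 higher and 12 lower (13.7%, against 10.5% of all genes). The rest of the ubiquitin system then had 9 higher and 8 lower (6.27%). psmb10 passed in each of the 6 fits without 1 library, whereas rnf213, btbd10a, klhl25, uchl3 and psmd12 each lost the call in at least 1 of them. The library left out was then MZznf598 replicate 1, 2 or 3 or WT replicate 1 or 2. The edgeR adjusted p reached 0.0434 for klhl25 without MZznf598 replicate 1.

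Immune and interferon genes had the third highest share of calls, 4.91% of 163 genes, with 2 higher and 6 lower and a median log2 fold change of -0.03. The gene with the lowest p was ikbip (ENSDARG00000078520), named for its binding to a kinase of the NF-kappaB pathway, with 8.81, 9.05 and 10.4 CPM in the MZznf598 libraries, against 53.7, 53.7 and 52.9 CPM in the WT libraries (log2 fold change -2.505, SE 0.10, edgeR adjusted p = 0.000127). b2ml (ENSDARG00000015887), a beta-2-microglobulin, the light chain of MHC class I, had 0.171, 0.251 and 0.292 CPM in the MZznf598 libraries, against 6.35, 7.34 and 5.97 CPM in the WT libraries (log2 fold change -4.73, SE 0.32, edgeR adjusted p = 0.000614). The other genes that fell were psmb10, tap2t, nlrp3 and cd37, and those that rose were isg20 and mhc1zfa. In the fit that left out WT replicate 3 the list had 6 genes higher and 17 lower (14.1%), against 10.5% of all genes.

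Several of these genes belong to MHC class I antigen presentation, in which the proteasome cuts proteins, the Tap transporter carries the peptides into the endoplasmic reticulum and a class I heavy chain with beta-2-microglobulin presents them. A list of 18 tested genes of this pathway was drawn up after the values had been seen, so that its counts are a description and no evidence of a shared change. Of the 18, 1 rose and 3 fell (22.2%, against 2.24% of all genes), and the median log2 fold change was -0.31, with 3 genes above 0. Without WT replicate 3 the counts were 1 higher and 4 lower (27.8%). tap2t (ENSDARG00000033446), a subunit of the Tap transporter, had 6.33, 5.11 and 4.19 CPM in the MZznf598 libraries, against 17.5, 21.1 and 17.2 CPM in the WT libraries (log2 fold change -1.83, SE 0.20, edgeR adjusted p = 0.00266), whereas tap1, the other subunit, averaged 6.99 CPM in MZznf598 and 10.6 CPM in WT and did not pass (edgeR adjusted p = 0.135). Of the heavy chains of the list, mhc1zfa passed the test. mhc1zfa (ENSDARG00000088022) had 3.76, 4.36 and 8.86 CPM in the MZznf598 libraries, against 0.322, 0.6602 and 0.577 CPM in the WT libraries (log2 fold change 3.42, SE 0.48, edgeR adjusted p = 0.00798). mhc1zba had 4.62, 5.44 and 6.72 CPM in the MZznf598 libraries, against 9.89, 11.4 and 7.31 CPM in the WT libraries and did not pass (edgeR adjusted p = 0.107). mhc1haa, the most abundant heavy chain of the list, had 43.3, 42.3 and 43.2 CPM in the MZznf598 libraries, against 62.6, 53.6 and 41.9 CPM in the WT libraries and did not pass (edgeR adjusted p = 0.276). Libraries of 1 group could also differ, since mhc1zja had 5.56, 5.36 and 0.0974 CPM in the MZznf598 libraries, against 12.4, 11.8 and 9.53 CPM in the WT libraries, so that it was near 0 in MZznf598 replicate 3 alone. Class I genes are similar in sequence, and uniquely mapped reads may divide unevenly among them. Leaving out MZznf598 replicate 1, 2 or 3 or WT replicate 1 or 2 ended the calls of tap2t, mhc1zfa, nlrp3 and cd37 in at least 1 such fit, with edgeR adjusted p of up to 0.0553 for cd37 without MZznf598 replicate 2, and no such fit ended that of ikbip and b2ml.

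**Figure D5:**
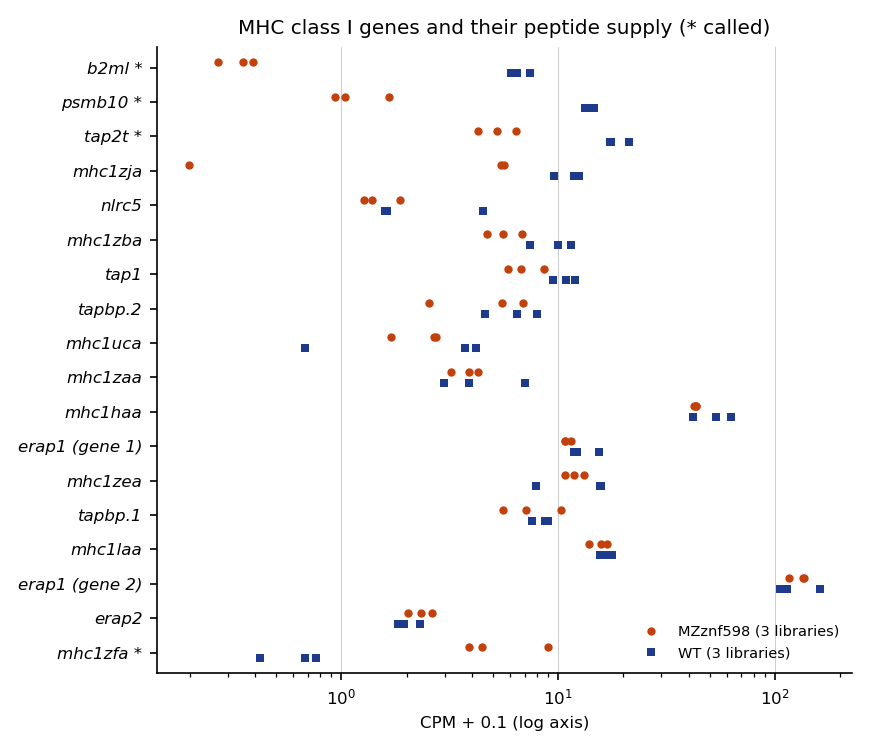
Level of 18 tested genes of MHC class I presentation in each library at 1 hpf, as CPM + 0.1 on a log axis, from the lowest log2 fold change at the top to the highest at the bottom. Circles are the 3 MZznf598 libraries and squares the 3 WT libraries. Asterisks mark b2ml, psmb10 and tap2t, which fell, and mhc1zfa, which rose.

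Cell division genes have products that drive the rapid cleavages. Of 202 genes of the cell cycle and mitosis 2 rose and 3 fell (2.48%). haus4, of the augmin complex that nucleates spindle microtubules, had 107, 103 and 98.8 CPM in the MZznf598 libraries, against 53.97, 55.2 and 44.2 CPM in the WT libraries (log2 fold change 1.01, SE 0.10, edgeR adjusted p = 0.00154). gmnn, the licensing inhibitor geminin, had 345, 347 and 328 CPM in the MZznf598 libraries, against 230, 227 and 265 CPM in the WT libraries (log2 fold change 0.497, SE 0.07, edgeR adjusted p = 0.00797). anapc5, a subunit of the anaphase-promoting complex, had 25.99, 24.2 and 24.2 CPM in the MZznf598 libraries, against 80.99, 71.1 and 92.4 CPM in the WT libraries (log2 fold change -1.71, SE 0.11, edgeR adjusted p = 0.000523), and ska3, of the complex that holds kinetochores to microtubules, also fell (log2 fold change -1.15). The changes thus went both ways, and only that of anapc5 among them exceeded 3-fold. Of 178 genes of DNA replication and repair 2 rose and 3 fell (2.81%). The increases were in tipin, of the fork protection complex (log2 fold change 0.62), and top1 (0.28), and the decreases included the minor mcm6 gene. In the fit without WT replicate 3 the cell cycle list had 10 higher and 9 lower (9.41%) and the replication and repair list 8 higher and 14 lower (12.4%). In the fits without 1 library, haus4, gmnn, ska3, tipin and top1 each lost the call in at least 1. The library left out was then MZznf598 replicate 1, 2 or 3 or WT replicate 1 or 2. The edgeR adjusted p reached 0.0548 for top1 without MZznf598 replicate 1, and anapc5 passed in all 6.

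Chromatin genes had 1 increase and 6 decreases among 274 (2.55%). kdm2b, a histone demethylase of a Polycomb complex, fell in 1 of its 2 genes (ENSDARG00000036593), with 25.6, 23.5 and 28.4 CPM in the MZznf598 libraries, against 84.8, 88.5 and 68.8 CPM in the WT libraries (log2 fold change -1.64, SE 0.12, edgeR adjusted p = 0.000686), and npm2a was another. asxl2, a Polycomb-associated protein, rose, with 46.9, 42.3 and 35.3 CPM in the MZznf598 libraries, against 17.1, 13.6 and 9.91 CPM in the WT libraries (log2 fold change 1.61, SE 0.21, edgeR adjusted p = 0.00558). Leaving WT replicate 3 out, the list had 20 genes higher and 15 lower (12.8%). Of 158 genes of the general transcription machinery 2 rose and 1 fell (1.90%). cstf1, of the cleavage stimulation factor, and ints9, of the Integrator, rose (log2 fold change 0.66 and 0.89), and med20, a Mediator subunit, fell, with 14.96, 13.3 and 14.5 CPM in the MZznf598 libraries, against 36.8, 38.1 and 36.3 CPM in the WT libraries (log2 fold change -1.38, SE 0.10, edgeR adjusted p = 0.000626). Of 326 transcription factors other than C2H2 zinc finger genes 3 rose and 3 fell (1.84%). hif1al, which has a hypoxia-inducible factor symbol, had 126, 129 and 113 CPM in the MZznf598 libraries, against 30.4, 28.1 and 43.6 CPM in the WT libraries (log2 fold change 1.86, SE 0.16, edgeR adjusted p = 0.00116). mycl, of the Myc family, had 19.1, 17.3 and 18.7 CPM in the MZznf598 libraries, against 44.2, 39.03 and 34.9 CPM in the WT libraries (log2 fold change -1.102, SE 0.12, edgeR adjusted p = 0.00274), and runx1t1, a corepressor, fell as well (log2 fold change -1.57). The transcription machinery had 7 higher and 4 lower (6.96%) and these transcription factors 15 higher and 18 lower (10.1%) once WT replicate 3 was left out. When MZznf598 replicate 1, 2 or 3 or WT replicate 1 or 2 was left out, the calls of asxl2, cstf1, ints9, hif1al, mycl and runx1t1 were lost in at least 1 fit (edgeR adjusted p of up to 0.0473 for runx1t1 without MZznf598 replicate 2), but not those of kdm2b and med20.

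In metabolism, 3 of 283 genes for carbohydrates, amino acids, nucleotides and redox reactions rose and 6 fell (3.18%). pgls, the lactonase of the pentose phosphate pathway, had 9.83, 12.1 and 12.3 CPM in the MZznf598 libraries, against 50.4, 43.7 and 48.4 CPM in the WT libraries (log2 fold change -2.06, SE 0.12, edgeR adjusted p = 0.000493). alpl, the tissue-nonspecific alkaline phosphatase, had 0.598, 0.754 and 0.487 CPM in the MZznf598 libraries, against 10.6, 13.9 and 12.3 CPM in the WT libraries (log2 fold change -4.29, SE 0.26, edgeR adjusted p = 0.000493). Each MZznf598 library was below each WT library in both genes. nudt19, a Nudix hydrolase of peroxisomes, rose, with 24.02, 25.1 and 24.9 CPM in the MZznf598 libraries, against 6.92, 8.66 and 6.45 CPM in the WT libraries (log2 fold change 1.75, SE 0.15, edgeR adjusted p = 0.00113), and so did pygl, glycogen phosphorylase (log2 fold change 0.46). Of 345 lipid genes 3 rose and 2 fell (1.45%). sptlc3, a subunit of the enzyme that starts sphingolipid synthesis, had 35.6, 38.2 and 34.5 CPM in the MZznf598 libraries, against 93.5, 86.8 and 91.99 CPM in the WT libraries (log2 fold change -1.33, SE 0.07, edgeR adjusted p = 0.000398). npc1l1 and cyp2x7, a cytochrome P450, rose, and abhd15a, of the alpha/beta hydrolases, fell (log2 fold change -3.34). The median log2 fold change of the lipid list was -0.03. With WT replicate 3 left out, the metabolic list had 13 higher and 24 lower (13.1%) and the lipid list 14 higher and 16 lower (8.696%). pgls, alpl, sptlc3 and npc1l1 passed in each of the 6 fits without 1 library, whereas nudt19, pygl, cyp2x7 and abhd15a each lost the call in at least 1. The library left out was then MZznf598 replicate 1, 2 or 3 or WT replicate 2. The edgeR adjusted p reached 0.0387 for cyp2x7 without MZznf598 replicate 2.

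Of 125 nuclear genes of the respiratory chain none rose and 2 fell (1.60%), which were cox17, a copper chaperone of cytochrome oxidase, with 21.8, 22.8 and 25.2 CPM in the MZznf598 libraries, against 50.7, 66.4 and 65.3 CPM in the WT libraries (log2 fold change -1.39, SE 0.13, edgeR adjusted p = 0.00142), and the weakly expressed ndufa9b. In 91 other mitochondrial genes 1 fell (1.099%), timm23b of the import channel, with 0.427, 0.419 and 0.389 CPM in the MZznf598 libraries, against 6.35, 7.18 and 4.23 CPM in the WT libraries (log2 fold change -3.81, SE 0.34, edgeR adjusted p = 0.0013). Of 26 genes for haemoglobin, heme and iron none rose and 1 fell (3.85%). fech, which inserts iron into heme, had 49.1, 49.1 and 47.5 CPM in the MZznf598 libraries, against 76.8, 73.03 and 69.3 CPM in the WT libraries (log2 fold change -0.59, SE 0.07, edgeR adjusted p = 0.00368). When WT replicate 3 was left out, the respiratory chain had 4 higher and 6 lower (8%), the other mitochondrial genes 5 higher and 7 lower (13.2%) and the heme and iron list none higher and 3 lower (11.5%), so that only the last still had no increase. Leaving out MZznf598 replicate 1, 2 or 3 or WT replicate 1 or 2 ended the calls of cox17, ndufa9b, timm23b and fech in at least 1 such fit, with edgeR adjusted p of up to 0.0378 for ndufa9b without MZznf598 replicate 1.

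Of 365 solute carriers and ABC transporters 3 rose and 5 fell (2.19%). slc35b4, a nucleotide sugar transporter of the Golgi, had 3.68, 2.85 and 2.04 CPM in the MZznf598 libraries, against 30.6, 55.6 and 52.6 CPM in the WT libraries (log2 fold change -4.004, SE 0.31, edgeR adjusted p = 0.0008197). slc5a5, the sodium-iodide symporter, had 0.171, 0.168 and 0.584 CPM in the MZznf598 libraries, against 8.28, 5.86 and 9.62 CPM in the WT libraries (log2 fold change -4.68, SE 0.47, edgeR adjusted p = 0.00195). slc38a11, of an amino acid transporter family, and mfsd12, a lysosomal transporter, rose (log2 fold change 1.298 and 0.65). Trafficking, the largest list, had no increase and 5 decreases among 443 genes (1.13%). tmed1 (ENSDARG00000017255), a cargo receptor of the early secretory pathway, had 1.03, 0.6701 and 1.56 CPM in the MZznf598 libraries, against 18.5, 21.6 and 20.98 CPM in the WT libraries (log2 fold change -4.24, SE 0.27, edgeR adjusted p = 0.000523), and stx7 was the other gene taken by the naming rule. Among 126 lysosome and autophagy genes 2 rose and none fell (1.59%), both of them genes of palmitoyl-protein thioesterases. ppt2 (ENSDARG00000093176) had 344, 269 and 370 CPM in the MZznf598 libraries, against 124, 119 and 158 CPM in the WT libraries (log2 fold change 1.29, SE 0.15, edgeR adjusted p = 0.00331), and ppt2a.5 had 15.2, 18.6 and 14.3 CPM in the MZznf598 libraries, against 4.34, 4.62 and 5.196 CPM in the WT libraries (log2 fold change 1.77, SE 0.18, edgeR adjusted p = 0.00195). Both were over 2-fold higher in MZznf598. They are members of a gene family, and only uniquely aligned reads were counted, so a read that matches both equally counts for neither. How this bears on their changes was not tested. Without WT replicate 3 calls went both ways in all of these lists, with 24 higher and 21 lower (12.3%) among the carriers, 13 higher and 18 lower (6.998%) in trafficking and 5 higher and 3 lower (6.35%) among lysosome and autophagy genes. In the fits without 1 library, slc5a5, slc38a11, mfsd12, stx7, ppt2 and ppt2a.5 each lost the call in at least 1. The library left out was then MZznf598 replicate 1, 2 or 3 or WT replicate 1 or 2. The edgeR adjusted p reached 0.0335 for mfsd12 without MZznf598 replicate 2, and slc35b4 and tmed1 passed in all 6.

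Among 221 genes of ion channels and neurotransmission 3 rose and 4 fell (3.17%), led by gad1 and gabrr2. piezo2, a mechanically gated channel, rose (log2 fold change 0.85), and adgrb3, an adhesion receptor of synapses, fell, with 13.8, 15.8 and 10.9 CPM in the MZznf598 libraries, against 35.6, 34.1 and 38.2 CPM in the WT libraries (log2 fold change -1.41, SE 0.15, edgeR adjusted p = 0.00266). Chaperones had 3 increases and 1 decrease among 154 genes (2.60%). The increases included both genes of the myosin chaperone Unc45. unc45a had 122, 122 and 119 CPM in the MZznf598 libraries, against 71.5, 71.4 and 64.1 CPM in the WT libraries (log2 fold change 0.81, SE 0.06, edgeR adjusted p = 0.000972), and unc45b, which is known for its role in muscle, had 36.8, 34.9 and 45.2 CPM in the MZznf598 libraries, against 9.81, 17.3 and 11.9 CPM in the WT libraries (log2 fold change 1.58, SE 0.22, edgeR adjusted p = 0.00764). The groups did not overlap in either gene. Of 195 genes of glycosylation and GPI anchors 2 rose and 2 fell (2.05%). galnt18 and st3gal3 rose, and b3gnt5 and b3gntl1, which belong to the family that adds N-acetylglucosamine, fell (log2 fold change -0.94 and -0.67). Leaving out WT replicate 3, the channel list had 17 higher and 14 lower (14.03%), the chaperones 14 higher and 6 lower (12.99%) and the glycosylation list 8 higher and 12 lower (10.3%). When MZznf598 replicate 1, 2 or 3 or WT replicate 1 or 2 was left out, the calls of piezo2, adgrb3, unc45a, unc45b, galnt18 and b3gntl1 were lost in at least 1 fit (edgeR adjusted p of up to 0.0374 for unc45b without MZznf598 replicate 3), but not that of b3gnt5.

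The cytoskeleton list had the most calls, 6 increases and 5 decreases among 301 genes (3.65%). kif16b, a kinesin that moves endosomes, had 17.1, 17.6 and 16.1 CPM in the MZznf598 libraries, against 4.42, 5.03 and 3.56 CPM in the WT libraries (log2 fold change 1.96, SE 0.18, edgeR adjusted p = 0.0013), and tpm4 was another increase. cttnbp2nl, named for its relation to a cortactin-binding protein, had 8.72, 10.7 and 10.5 CPM in the MZznf598 libraries, against 30.2, 34.4 and 24.4 CPM in the WT libraries (log2 fold change -1.57, SE 0.17, edgeR adjusted p = 0.00263), and coro2b and sptb fell to near 0 CPM in MZznf598. The list's median log2 fold change was 0.01. If WT replicate 3 was left out, 25 of its genes rose and 13 fell (12.6%). tpm4 passed in each of the 6 fits without 1 library, whereas kif16b, cttnbp2nl, coro2b and sptb each lost the call in at least 1. The library left out was then MZznf598 replicate 1, 2 or 3 or WT replicate 1 or 2. The edgeR adjusted p reached 0.0461 for sptb without MZznf598 replicate 1.

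Cilia and centrosome genes had 2 increases and 5 decreases among 171 (4.09%), with a median log2 fold change of -0.01. ift74, a core part of the intraflagellar transport train, had 22.7, 20.8 and 25.1 CPM in the MZznf598 libraries, against 49.3, 53.97 and 48.2 CPM in the WT libraries (log2 fold change -1.15, SE 0.10, edgeR adjusted p = 0.0013). invs, which encodes inversin, a protein of the ciliary base that acts in left-right patterning, rose, with 41.03, 36.4 and 43.6 CPM in the MZznf598 libraries, against 13.4, 20.96 and 16.4 CPM in the WT libraries (log2 fold change 1.25, SE 0.17, edgeR adjusted p = 0.00724). cfap20dc was the gene with the largest fall. The decreases ranged from cfap20dc, without a count in MZznf598, to changes of under 2-fold. After WT replicate 3 was left out, 7 of its genes rose and 9 fell (9.36%), against 10.5% of all genes. Leaving out MZznf598 replicate 1, 2 or 3 or WT replicate 1 ended the calls of ift74 and invs in at least 1 such fit, with edgeR adjusted p of up to 0.0432 for invs without MZznf598 replicate 1, and no such fit ended that of cfap20dc.

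Of 276 genes of adhesion and extracellular matrix 4 rose and 2 fell (2.17%). jup, the junction protein plakoglobin, had 71.5, 73.9 and 68.7 CPM in the MZznf598 libraries, against 37.1, 40.9 and 37.1 CPM in the WT libraries (log2 fold change 0.89, SE 0.07, edgeR adjusted p = 0.001101). igsf21, a synaptic adhesion protein, had 42.9, 41.7 and 44.1 CPM in the MZznf598 libraries, against 13.2, 11.97 and 16.8 CPM in the WT libraries (log2 fold change 1.62, SE 0.14, edgeR adjusted p = 0.00113). adamts18, a secreted protease, and itgb5, an integrin subunit, fell (log2 fold change -3.41 and -0.497). Of 356 genes of developmental signalling 3 rose and 5 fell (2.25%). erbb4, a receptor tyrosine kinase of neuregulins, rose in 1 of the 3 genes with that symbol, with 40.9, 37.5 and 43.3 CPM in the MZznf598 libraries, against 11.9, 6.602 and 12.2 CPM in the WT libraries (log2 fold change 1.99, SE 0.23, edgeR adjusted p = 0.00331). ntrk3, the neurotrophin receptor, had 17.4, 18.6 and 18.99 CPM in the MZznf598 libraries, against 44.9, 46.95 and 49.9 CPM in the WT libraries (log2 fold change -1.37, SE 0.09, edgeR adjusted p = 0.000614), and prkg1a, a kinase activated by cyclic GMP, also fell (log2 fold change -1.46). Of 142 protein phosphatase genes 2 rose and 2 fell (2.82%). ptpn4, a tyrosine phosphatase with a FERM domain, had 117, 119 and 125 CPM in the MZznf598 libraries, against 44.8, 50.7 and 39.4 CPM in the WT libraries (log2 fold change 1.42, SE 0.10, edgeR adjusted p = 0.000614), and its second gene was at 174 CPM in MZznf598 and 174 CPM in WT. ppm1j rose (log2 fold change 1.56), and ptprb and ppp1r35 fell (-1.73 and -1.004). In 79 nuclear transport genes 1 fell (1.27%), xpo4, an exportin (log2 fold change -0.49). None of 13 genes derived from transposons or retroviruses was called by edgeR. An unadjusted p below 0.05 was found in 4 of the 13 (30.8%, against 22.0% of all genes). DESeq2 called 2 of the 13, against 990 of all 13599 genes. Without WT replicate 3, 3 of those 13 rose (23.1%), against 5.16% of all genes. After WT replicate 3 was left out, adhesion and matrix had 17 higher and 18 lower (12.7%), developmental signalling 16 higher and 30 lower (12.9%), the phosphatases 9 higher and 5 lower (9.86%) and nuclear transport 8 higher and 2 lower (12.7%), the last with more increases than decreases. In the fits without 1 library, jup, igsf21, adamts18, itgb5, erbb4, prkg1a, ppm1j, ptprb, ppp1r35 and xpo4 each lost the call in at least 1. The library left out was then MZznf598 replicate 1, 2 or 3 or WT replicate 1 or 2. The edgeR adjusted p reached 0.0567 for ppp1r35 without MZznf598 replicate 1, and ntrk3 and ptpn4 passed in all 6.

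Of 1601 genes with no functional name, 25 rose and 32 fell (3.56%), and of 11998 genes with a symbol 93 rose and 155 fell (2.07%). The difference between these shares was not tested. Genes with no functional name made up 21.2% of the genes that rose, 17.1% of those that fell and 11.8% of all genes tested. si:ch1073-83m3.1 (ENSDARG00000028784) had 212, 200 and 213 CPM in the MZznf598 libraries, against 21.4, 24.1 and 12.6 CPM in the WT libraries (log2 fold change 3.42, SE 0.20, edgeR adjusted p = 0.000493), and was among the more abundant mRNAs with such a change. si:dkeyp-46h3.5 had 1.71, 1.59 and 1.46 CPM in the MZznf598 libraries, against 79.5, 69.3 and 109 CPM in the WT libraries (log2 fold change -5.75, SE 0.23, edgeR adjusted p = 0.000127), and si:dkeyp-46h3.6, named from the same clone, had 4.62, 4.104 and 4.58 CPM in the MZznf598 libraries, against 38.5, 32.02 and 43.01 CPM in the WT libraries (log2 fold change -3.09, SE 0.16, edgeR adjusted p = 0.000346). Of 101 clones with more than 1 tested gene, 4 had more than 1 called gene, 9 genes in all, and within each of the 4 the called genes changed in the same direction. Clone names mark genes that lie near each other in the genome. Only uniquely aligned reads were counted, so reads that match duplicated genes equally were left out. Whether nearness or similar sequence bears on the shared direction was not tested. Genes with no functional name had 111 higher and 111 lower (13.9%) and those with a symbol 591 higher and 620 lower (10.1%) without WT replicate 3. No fit that left out 1 library lost the call of si:ch1073-83m3.1, si:dkeyp-46h3.5 and si:dkeyp-46h3.6.

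Gene duplicates did not always move together. A called gene shared its symbol with another tested gene for 32 symbols, and under 2 of these symbols, slc27a1 and lrrc4c, 1 gene rose and another fell. These 2 were chosen after their values had been seen. For slc27a1, a fatty acid transport protein, ENSDARG00000104949 averaged 2.701 CPM in MZznf598 and 0.389 CPM in WT, and ENSDARG00000006240 averaged 43.2 CPM in MZznf598 and 74.6 CPM in WT. For lrrc4c, a synaptic leucine-rich repeat protein, ENSDARG00000113411 averaged 68.9 CPM in MZznf598 and 39.4 CPM in WT, and ENSDARG00000016739 averaged 0.122 CPM in MZznf598 and 3.75 CPM in WT. In the fits without 1 library, ENSDARG00000104949, ENSDARG00000006240, ENSDARG00000113411 and ENSDARG00000016739 each lost the call in at least 1. The library left out was then MZznf598 replicate 1, 2 or 3 or WT replicate 1 or 2. The edgeR adjusted p reached 0.0475 for ENSDARG00000104949 without MZznf598 replicate 1.

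The genes around znf598 were also examined. The 25 tested genes on each side of znf598 were taken in the order of the RefSeq annotation of assembly GRCz12tu. None of these 50 was called by edgeR, against 2.24% of all genes. DESeq2 called 1 of the 50, against 990 of all 13599 genes. An unadjusted p below 0.05 was found in 5 of the 50, against 22.0% of all genes. Their log2 fold changes lay between -1.22 and 0.39, with a median of 0.02. When WT replicate 3 was left out, 4 of the 50 passed, against 10.5% of all genes.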

How the data were processed

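Total RNA of pooled zebrafish embryos was depleted of ribosomal RNA and sequenced as stranded single-end RNA-Seq. The deposited files hold counts of reads per gene. The authors trimmed reads with fastp, aligned them uniquely to GRCz11 with STAR (version 2.7.8a per the labels) and counted them with featureCounts. By the paper's methods, the alignment allowed up to 1 mismatch. A read with more mismatches to the reference was therefore not counted, and differences between the parental stocks in such losses were not tested. The annotation release and strand setting are not given in the sources used here, so antisense and overlapping genes may share reads. Only the 6 libraries at 1 hpf, grouped by their labels, were compared here.

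Counts were analysed with edgeR (version 4.0.16, R version 4.3.3). A gene was kept where 3 or more of these libraries exceeded 1 CPM (13599 genes, with 11833 removed). Libraries were scaled by TMM, the robust quasi-likelihood test was two-sided, and p-values were adjusted by Benjamini-Hochberg over all genes tested. Genes were called at an adjusted p below 0.01, and CPM values are TMM-scaled. A floor of 3 counts per library (0.267 CPM in MZznf598 and 0.259 CPM in WT libraries on average) was used for lower bounds of fold changes where every library of a group had no count. Where the lower group had counts, but no more than 3 in any library, the ratio of summed counts is given with an exact (Clopper-Pearson) 95% interval. Bounds and intervals cover counting error only. On simulated counts for these 13599 genes the test recovered 50% of 2-fold and 84% of 4-fold changes, with 8 false calls. Only a small part of the genes was given a change. The 8 false calls are therefore to be read against the calls made in the simulation, not against all 13599 genes. These counts were drawn independently for each library, and none was made to stand apart as WT replicate 3 did. The simulation therefore does not give the error rate of the calls reported here.

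Genes were named by rule: znf598 and the 12 largest changes in each direction. The 12 were taken among called genes with a symbol that was not clone-based, no overlap and at least 5 CPM in the higher group. Added to these were 2 clone-named genes per direction, and up to 2 genes per direction with the lowest p in each function list. Other genes are said to be chosen after their values were seen, or stand as uncalled members of a described list. Members, lists and markers were chosen with earlier results of these data known, and some list patterns were corrected after they were first matched to symbols. Lists were matched by symbol, so a list can hold genes of other functions, such as psmc3ip among proteasome genes and gpatch8 among lipid genes. The lists are described by counts without a test. Symbols were matched by gene identifier (13243 of 13599 genes), and 1466 tested genes share a symbol with another. Replicate libraries differed by more than counting noise. Same-numbered libraries deviated together in no consistent way (r = 0.03, -0.13 and -0.09), so the numbers were not taken as pairs. Alternatives were RLE scaling, other filters, DESeq2 (version 1.42.0), a fit of all 12 libraries, a replicate block, another threshold, a test against a 1.5-fold change and leaving out each library. Sequence features and chromosomes were not analysed, apart from the order of genes around znf598 in the RefSeq table, since no genome of this build was used and only 74.2% of the tested genes matched the RefSeq table by symbol.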

Additional observations from a re-analysis of the deposited data

How the results depend on the processing

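The decrease of znf598 passed in every fit run. The counts of called genes, 118 higher and 187 lower in MZznf598, depended strongly on the libraries and the test. Leaving out 1 library in turn gave 15 to 702 genes higher and 47 to 731 lower, with the lowest counts without MZznf598 replicate 1 (higher) and MZznf598 replicate 2 (lower) and the highest without WT replicate 3. Without a filter on low counts 210 genes were higher (268 lower). DESeq2 called 449 and 541 genes, the fit of all 12 libraries 259 and 349, an adjusted p below 0.05 458 and 543, and glmTreat with a limit of 1.5-fold 35 and 83. RLE scaling (119 and 184) and a filter of 5 CPM (97 and 160) changed little. With the replicate block 21 and 43 genes were called, of which 19 and 42 were among the 118 and 187. The labels do not state whether libraries of the same number belong together, and why calls were lost there was not tested. Of the 118 and 187 genes, 104 and 174 were also called with all 12 libraries, and DESeq2 called all of them. None of the 106 named genes changed its sign in any fit, 34 passed in all 6 fits without 1 library, and 105 passed without WT replicate 3. With 3 libraries a group and 10292330 to 12162660 counts each, small changes of weakly expressed mRNAs were not detectable, and absence means no more than 3 counts per library.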
